A study of Mus musculus with 8 samples.

Results

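The imprinted Dlk1-Dio3 domain of mouse chromosome 12 carries one of the largest groups of microRNAs (miRNAs) of the mouse genome, and 44 miRNAs named from it were followed in maturing mouse oligodendrocytes, the cells that make myelin. A row of the array belonged to the set when its name was that of a listed miRNA, with or without a -3p or -5p arm; star strands were left out. All 44 were on the array, as 54 mature sequences among 611 mouse miRNAs. Of these 54, 10 were detected on at least 3 of the 8 arrays, 13 on 1 or 2 arrays and 31 on none.

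Total RNA came from primary C57BL/6J oligodendrocyte cultures of the genotype CNP-Cre, which all samples share; in it Cre recombinase stands under the promoter of Cnp, a gene of the oligodendrocyte lineage. Cells had been shaken off, plated with B27, thyroid hormones and 1% horse serum, and left untreated. The labels name 3 arrays of day 0 (d0) and 2 of day 1 (d1), both immature, and 3 of day 6 (d6), called mature, 1 sample per array; the series text counts the immature cultures as 1 and 2 days old. The sources used here give neither the age of the animals nor whether the samples, called independent, came from different ones, so the p-values below cover only the spread between these samples.

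The domain is expressed from 1 parental chromosome or the other. On the maternal one a chain of long noncoding RNAs, Meg3, Rian and Mirg among them, is transcribed, and the miRNAs are cut from it; Dlk1, Rtl1 and Dio3 come from the paternal one. The miRNAs fall into an antisense Rtl1 group, which cleaves the Rtl1 messenger, and a long distal group from miR-379 to miR-410, known for its expression in brain, where its miR-134 limits dendritic spine size in rat neurons. A group on the Meg3 side lies before them and a small one in Rian between them. In bulk RNA from a culture, fewer cells of a type and less RNA per cell cannot be told apart.

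The mature sequences of the members that the results turn on are given in locus order, 5′ to 3′, from RefSeq (GRCm38.p6), with the seed (bases 2 to 8, the part that pairs with target messengers) in capitals; miR-376b is shown because it stands just outside the limit of 3 arrays.
miR-127-3p: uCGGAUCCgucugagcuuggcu
miR-434-3p: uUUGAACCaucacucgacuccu
miR-136-5p: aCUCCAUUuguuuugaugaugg
miR-370-3p: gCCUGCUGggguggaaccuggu
miR-379-5p: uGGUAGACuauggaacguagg
miR-494-3p: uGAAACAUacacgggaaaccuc
miR-376b-3p: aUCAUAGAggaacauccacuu
miR-376a-3p: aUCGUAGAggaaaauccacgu
miR-300-3p: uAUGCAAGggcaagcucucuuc
miR-410-3p: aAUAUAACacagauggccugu
A RefSeq mature sequence was matched for 43 of the 54, and all 43 had different seeds. The sequences without a match, miR-487b and miR-376c among them, were not compared. The 9 detected members with a sequence therefore carried 9 seeds. The closest pair shown, miR-376a and miR-376b, is identical at 18 of 21 bases; counted from 1 at the 5′ end, with the base of miR-376a first, they differ by G4A, A13C and G20U, the first of these inside the seed. The GC content of the detected members had a median of 45.5% (36.4% to 68.2%, n = 9), a range within the 23.8% to 72.7% of the members detected on fewer arrays (n = 34).

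RefSeq placed 43 of the 44 hairpins at chr12:109563692-109743795, all on the plus strand, a stretch of 180.1 kb. Hairpins of 10 members lay within the annotated interval of Rtl1, 2 in Rian, 7 in Mirg, 1 in Meg3 and 23 outside any of these annotated intervals. The groups named here differ from these intervals. Of the Meg3 side, miR-770 alone lay in Meg3, while miR-673, miR-493, miR-337, miR-540 and miR-665 lay in the Rtl1 interval. Detection was uneven along the stretch. None of the 10 sequences of the Meg3 side was detected on 3 or more arrays, against 3 of 6 of the antisense Rtl1 group, 1 of 2 of the Rian group and 6 of 36 of the miR-379 to miR-410 group. Counted as members by annotated interval, 3 of 10 in Rtl1, 1 of 2 in Rian and 1 of 7 in Mirg reached 3 arrays. So did 0 of 1 in Meg3 and 5 of 23 outside these intervals. Even within the long group, detected and undetected miRNAs were neighbours: miR-494, detected on all 8 arrays, has its hairpin at chr12:109715318-109715402 between those of miR-329, detected on 1 array, and miR-679, detected on none.

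**Figure D1:**
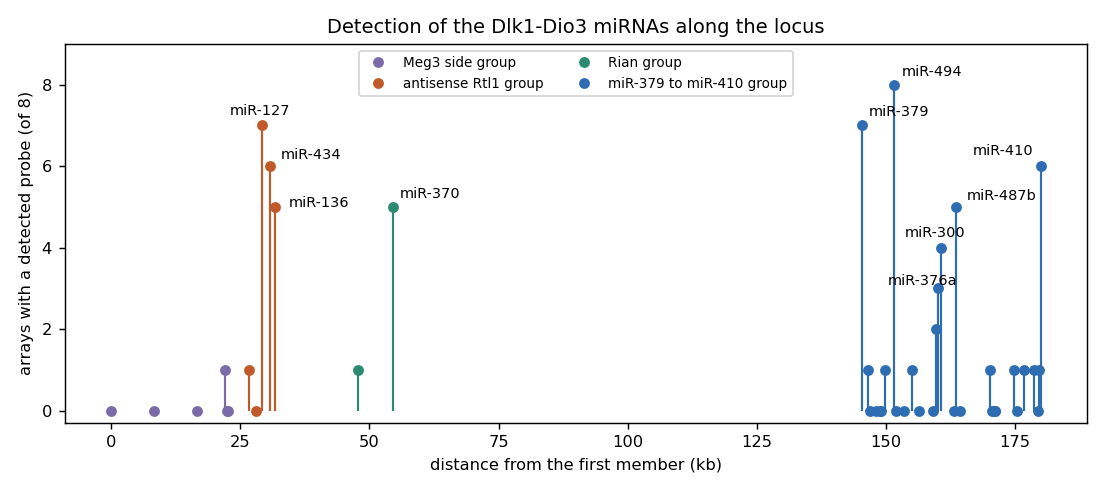
Number of arrays, of 8, on which each member was detected (y axis, the better arm where 2 are on the array) against the distance of its hairpin from that of miR-770 in kb (x axis), coloured by group. Members detected on 3 or more arrays are named; miR-494 reaches 8, and its closest neighbours stand at 1 and 0.

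By the scanner's stricter detection call a smaller share of the domain was detected than of all mouse miRNAs, and by its looser call a larger one. A probe counted as detected where the scanner had called a share of 0.5 or more of its spots well above background. By this call 10 of the 54 sequences (18.5%) reached 3 arrays, against 32.6% of all 611 mouse miRNAs on the array. By the scanner's looser call, a signal positive and significant against background, 33 of the 54 (61.1%) reached 3 arrays, against 336 of the 611 (55.0%). The counts that follow use the stricter call. Per array, 1, 10 and 23 of the 54 were detected at day 0, 10 and 6 at day 1, and 5, 9 and 6 at day 6. As a share this ran from 1.85% to 18.5% on 7 arrays, below the 10.8% to 34.5% of the other mouse miRNAs on the same arrays in each case. On day 0 replicate 3 alone the order was turned, with 42.6% of the domain and 35.0% of the other mouse miRNAs. No day stood apart, since the day 0 counts spanned those of the other days.

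Day 0 replicate 3 decided how many members were seen at all. All 23 sequences detected anywhere were detected on it, and 12 were detected on it and nowhere else: miR-337-3p, miR-431, miR-434-5p, miR-341, miR-411, miR-329, miR-495, miR-382, miR-154, miR-377, miR-541 and miR-369-5p. These 12 are 52.2% of the 23. Of 220 other mouse miRNAs detected anywhere, 23 (10.5%) were detected on 1 array, whichever it was. For 9 of the 220 that array was day 0 replicate 3, and 195 of the 220 were detected on it. The lowest signal that counted as detected was 11.9 on this array, against 13.9 (day 1 replicate 1) to 24.3 on 6 others and 199 on day 0 replicate 1, in scaled signal units; what part this has in the counts was not tested. MiR-376b was detected on 2 arrays, day 0 replicates 2 and 3. The miRNAs not detected on any array in either arm measured were miR-770, miR-673, miR-493, miR-540, miR-665, miR-433, miR-299, miR-380, miR-323, miR-758, miR-679, miR-666, miR-543, miR-667, miR-376c, miR-381, miR-539, miR-134, miR-668, miR-485, miR-496 and miR-409. MiR-134 is thus among those without a detected signal on these arrays.

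**Figure D2:**
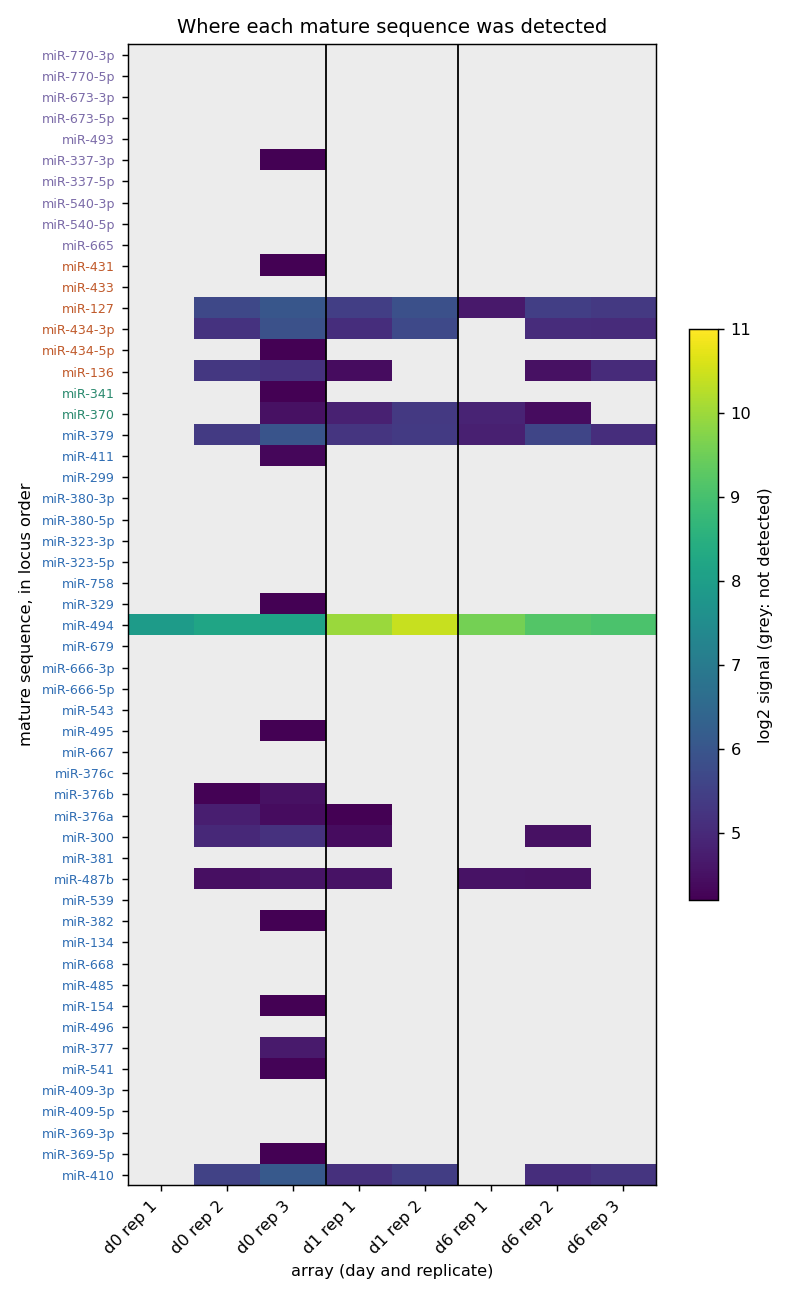
Detection of the 54 mature sequences (rows, in locus order, names coloured as in the plot along the locus) on the 8 arrays (columns, by day and replicate). Colour gives the scaled log2 signal where a probe was detected and grey marks no detection; day 0 replicate 3 holds all 23 detected sequences and day 0 replicate 1 holds miR-494 alone.

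One array stood apart. On day 0 replicate 1 the negative control spots had a median absolute deviation of 30.2 signal units, against 2.54 to 3.88 on the other 7 arrays, 61 mouse miRNAs were detected, against 150 to 218, and its correlation with the other arrays over the tested miRNAs was 0.832 to 0.881, against 0.884 to 0.968 among the other 7. Of the domain, miR-494 alone was detected there, so the values of all other members on this array lie under its own detection limit. Without it the log2 folds at day 1 over day 0 were 2.03 for miR-494, 0.73 for miR-370 and -0.93 for miR-136, and those at day 6 over day 0 were 1.10 for miR-494, -0.69 for miR-127, -0.79 for miR-434-3p, -0.67 for miR-136, 0.29 for miR-370, -0.48 for miR-379, -0.41 for miR-376a, -0.64 for miR-300, 0.0018 for miR-487b and -0.98 for miR-410. Of the calls given below, that of miR-494 at day 1 passed without it (limma adjusted p = 0.0126) and that at day 6 did not (limma adjusted p = 0.0628). With the array left out of the scaling, floor and filter too, the day 6 call passed (log2 fold 1.23, limma adjusted p = 0.0455). That setting was chosen after seeing the data. The oligodendrocyte markers miR-219 and miR-338-3p, which rise when these cells mature, did not order the arrays by label: miR-219 had log2 signals of 4.20, 8.14 and 5.10 at day 0, 6.72 and 4.20 at day 1, and 6.37, 5.79 and 7.17 at day 6. The day 0 arrays thus spanned the day 6 arrays in a marker of maturation. All 4 oligodendrocyte markers were detected on 3 or more arrays, and so were 7 of 8 neuron, 3 of 3 astrocyte, 5 of 6 microglia and leukocyte and 3 of 5 fibroblast and mural cell miRNAs. MiR-150 of lymphocytes and miR-145 of mural cells were detected on none. The summed signal of the oligodendrocyte list was 186 to 3460 at day 0, 258 to 2537 at day 1 and 879 to 2618 at day 6. That of the astrocyte list was 1179 to 1524, 850 to 1346 and 1448 to 2033 on the same days, and that of the microglia and leukocyte list 1445 to 2695, 1585 to 1791 and 1269 to 2086. The summed signal of the neuron list was 728 to 803 at day 0, 717 to 783 at day 1 and 526 to 1725 at day 6, and that of the fibroblast and mural cell list 127 to 255, 141 to 155 and 124 to 442 on the same days. Their part in the results was not tested.

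mmu-miR-494, of the long distal group, was the member with a call, and its scaled signal was higher at days 1 and 6 than at day 0. Its scaled log2 signals were 7.94, 8.20 and 8.16 at day 0, 9.98 and 10.42 at day 1, and 9.58, 9.19 and 9.07 at day 6. All 8 arrays detected it, and in this scaling no 2 days overlapped. Both day 1 arrays were the highest, the 3 day 6 arrays came next and the 3 day 0 arrays were lowest. At day 1 it averaged 10.20 ± 0.31 (SD, n = 2), against 8.10 ± 0.14 at day 0 (SD, n = 3), a log2 fold of 2.11 ± 0.28 (SE) or 4.31-fold, with an adjusted p of 0.00401 in limma over the 199 mouse miRNAs tested. At day 6 it averaged 9.28 ± 0.27 (SD, n = 3), a log2 fold of 1.18 ± 0.25 (SE) over day 0, or 2.27-fold, with a limma adjusted p of 0.0354. Between day 6 and day 1 the log2 fold was -0.93 ± 0.28 (SE), which did not pass (limma adjusted p = 0.258).

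The day 1 call was lost in 4 of 26 other settings, among them without day 1 replicate 2 (log2 fold 1.89, limma adjusted p = 0.0735). The day 6 call was lost in 19 of 26. Each array left out of the fit in turn, those of day 1 included, took it past the threshold. The log2 folds were then 1.03 to 1.28 and the limma adjusted p-values 0.0624 to 0.135. An exact permutation test of the 3 day 6 against the 3 day 0 arrays gave a two-sided p of 0.1, the smallest it allows.

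The second probe for miR-494, detected on 7 arrays, all but day 0 replicate 1, gave the same order. The value of that array, 6.71, is thus an undetected one and enters both folds of this probe. Its log2 signals were 6.71, 7.33 and 7.18 at day 0, 8.74 and 9.04 at day 1, and 8.44, 7.89 and 7.79 at day 6, for log2 folds over day 0 of 1.82 at day 1 and 0.97 at day 6. Before any scaling between arrays, the brighter probe read 227, 373 and 406 signal units at day 0, 1178 and 1143 at day 1, and 689, 553 and 386 at day 6. Unscaled, day 1 stayed clear of day 0, while day 6 replicate 3 fell below day 0 replicate 3. The gap between day 6 and day 0 thus depends on the scaling. With scaling to control probes, day 6 replicate 1 (log2 signal 9.94) lay above day 1 replicate 1 (9.84). The order of days 1 and 6 depends on the scaling too. The arrays lay on 1 slide and both of its rows gave values: day 1 exceeded day 0 by 1.94 log2 units in row 1 and by 2.23 in row 2, and day 6 exceeded day 0 by 1.02 in row 1 and by 1.19 in row 2.

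**Figure D3:**
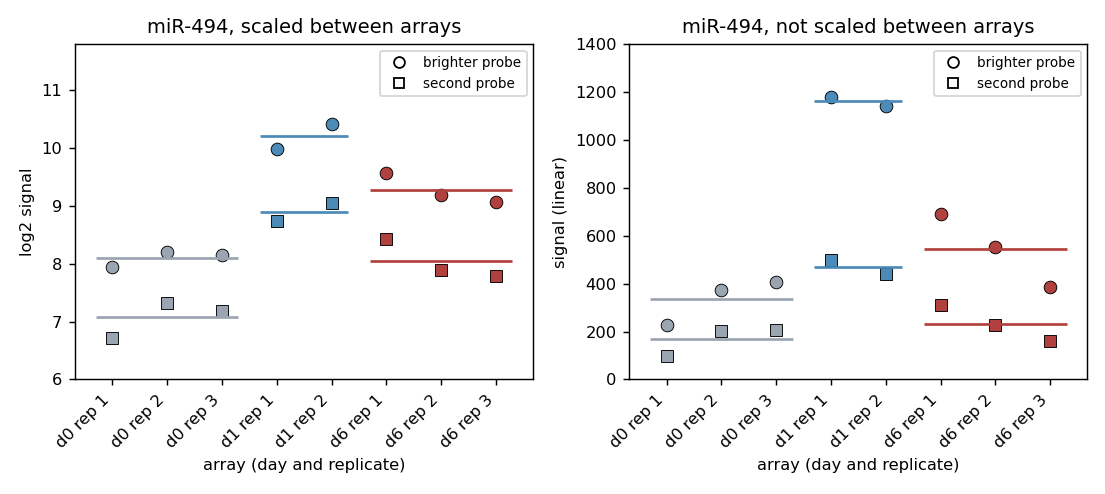
MiR-494 on each array (x axis, day and replicate), as scaled log2 signal on the left and as unscaled linear signal on the right; circles are the brighter and squares the second probe, and lines are the means of a day. Both probes are highest at day 1; the day 6 circles lie above the day 0 circles on the left (9.07 to 9.58 against 7.94 to 8.20) and overlap them on the right.

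The antisense Rtl1 group had 3 detected members, and none passed the test, though their folds at day 6 over day 0 were all below 0. mmu-miR-127, which directs cleavage of the Rtl1 messenger, had log2 signals of 6.05, 5.67 and 6.02 at day 0, 5.47 and 5.87 at day 1, and 4.67, 5.46 and 5.34 at day 6, and was detected on all arrays but day 0 replicate 1. All 3 day 6 values lay under all 5 immature ones, the gap between 5.46 and 5.47 being small. Its log2 fold at day 6 was -0.76 ± 0.29 (SE) over day 0 (limma adjusted p = 0.316) and -0.64 ± 0.26 (SE) over the mean of both immature days (limma adjusted p = 0.346). For the 3 mature against the 5 immature arrays as 1 group, an exact permutation test gave a two-sided p of 0.0179, the smallest of its 56 splits, unadjusted for the 10 members so tested. That test was run in the main scaling only. With arrays scaled to control probes the log2 fold was -0.13 over both immature days and -0.29 over day 0. Another background correction gave -0.14 and -0.22, so the size of the shift depends on the processing. A second probe, detected on 4 arrays, gave a log2 fold of -0.34 over day 0. Its day 6 values, 4.20, 4.47 and 4.38, overlapped the immature ones, of which day 1 replicate 1 was lowest at 4.35.

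mmu-miR-434-3p had log2 signals of 7.20, 5.21 and 5.90 at day 0, 5.10 and 5.70 at day 1, and 4.20, 5.05 and 5.04 at day 6. Here too the day 6 values of the brighter probe lay under every immature one, the first of them at the floor of 4.20. On the second probe, day 6 replicate 3 (4.34) lay above day 1 replicate 1 (4.31). The highest value of the brighter probe, 7.20, came from day 0 replicate 1, where miR-434-3p was not detected. The log2 fold at day 6 over day 0 was -1.34 ± 0.51 (SE, limma adjusted p = 0.316) and shrank to -0.79 without that array. Over all 25 other settings it ran from -1.79 to -0.42, the latter with another background correction. Against both immature days it was -0.99 ± 0.46 (SE, limma adjusted p = 0.466). mmu-miR-136, the third, had log2 signals of 4.94, 5.31 and 5.18 at day 0, 4.43 and 4.20 at day 1, and 4.20, 4.50 and 5.04 at day 6. Day 1 lay under day 0, with a log2 fold of -0.83 ± 0.31 (SE, limma adjusted p = 0.405), and day 6 overlapped both other days, at -0.56 ± 0.28 (SE, limma adjusted p = 0.409) over day 0.

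The Rian group had 1 detected member, mmu-miR-370, which did not pass the test. Its log2 signals were 4.20, 4.20 and 4.50 at day 0, 4.84 and 5.32 at day 1, and 4.89, 4.42 and 4.62 at day 6. Both day 1 arrays lay above all 3 day 0 arrays, of which 2 were at the floor. The log2 fold at day 1 over day 0 was 0.78 ± 0.28 (SE, limma adjusted p = 0.405), and at day 6 over day 0 it was 0.34 ± 0.25 (SE, limma adjusted p = 0.626). Its second probe, detected on 3 arrays, was at the floor on all 3 day 0 arrays, read 4.74 and 5.21 at day 1, and 4.33, 4.20 and 4.20 at day 6.

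Of the long distal group, mmu-miR-410 at its far end had the lowest fold. Its log2 signals were 6.21, 5.55 and 6.11 at day 0, 5.13 and 5.43 at day 1, and 4.20, 5.08 and 5.25 at day 6. Both later days lay under all day 0 arrays, while days 6 and 1 overlapped. The log2 fold at day 6 over day 0 was -1.11 ± 0.34 (SE, limma adjusted p = 0.173), and over both immature days -0.77 ± 0.31 (SE, limma adjusted p = 0.346). A second probe, detected on 6 arrays, gave -0.91 over day 0. Without any 1 array the fold over day 0 ran from -1.31 to -0.79. Over all 25 other settings it ran from -1.475 (no scaling) to -0.33 (another background correction). With scaling to control probes it was -0.66.

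mmu-miR-379, the first of the same group and, in neurons, needed for dendrite growth, showed no shift that could be told from its spread. Its log2 signals were 4.20, 5.35 and 5.97 at day 0, 5.24 and 5.35 at day 1, and 4.81, 5.63 and 5.09 at day 6. The log2 fold at day 6 over day 0 was 0.00 ± 0.45 (SE, limma adjusted p = 0.997). The day 0 arrays alone covered the whole range, and the floor value came from day 0 replicate 1, without which the fold was -0.48.

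The remaining 3 tested members of the distal group were close to the floor. MiR-300 had log2 signals of 4.23, 4.97 and 5.18 at day 0, 4.43 and 4.20 at day 1, and 4.20, 4.50 and 4.60 at day 6, and overlapped between days. MiR-487b had 5.86, 4.48 and 4.56 at day 0, 4.52 and 4.72 at day 1, and 4.52, 4.50 and 4.56 at day 6. Apart from the undetected 5.86 of day 0 replicate 1, its values lay within 4.48 to 4.72. MiR-376a, of a family known for A-to-I editing of its precursors, had 4.20, 4.78 and 4.44 at day 0 and stood at the floor on every later array; it was detected on day 0 replicates 2 and 3 and on day 1 replicate 1. Their log2 folds at day 6 over day 0 were -0.36 ± 0.30 for miR-300, -0.45 ± 0.37 for miR-487b and -0.27 ± 0.23 for miR-376a (SE, limma adjusted p = 0.626 for each). As no day 6 array detected miR-376a, its day 6 level is known only as an upper limit. The day 0 mean stood 1.04-fold above that limit. That mean includes day 0 replicate 1, undetected and set to the floor, so a decrease is not shown.

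**Figure D4:**
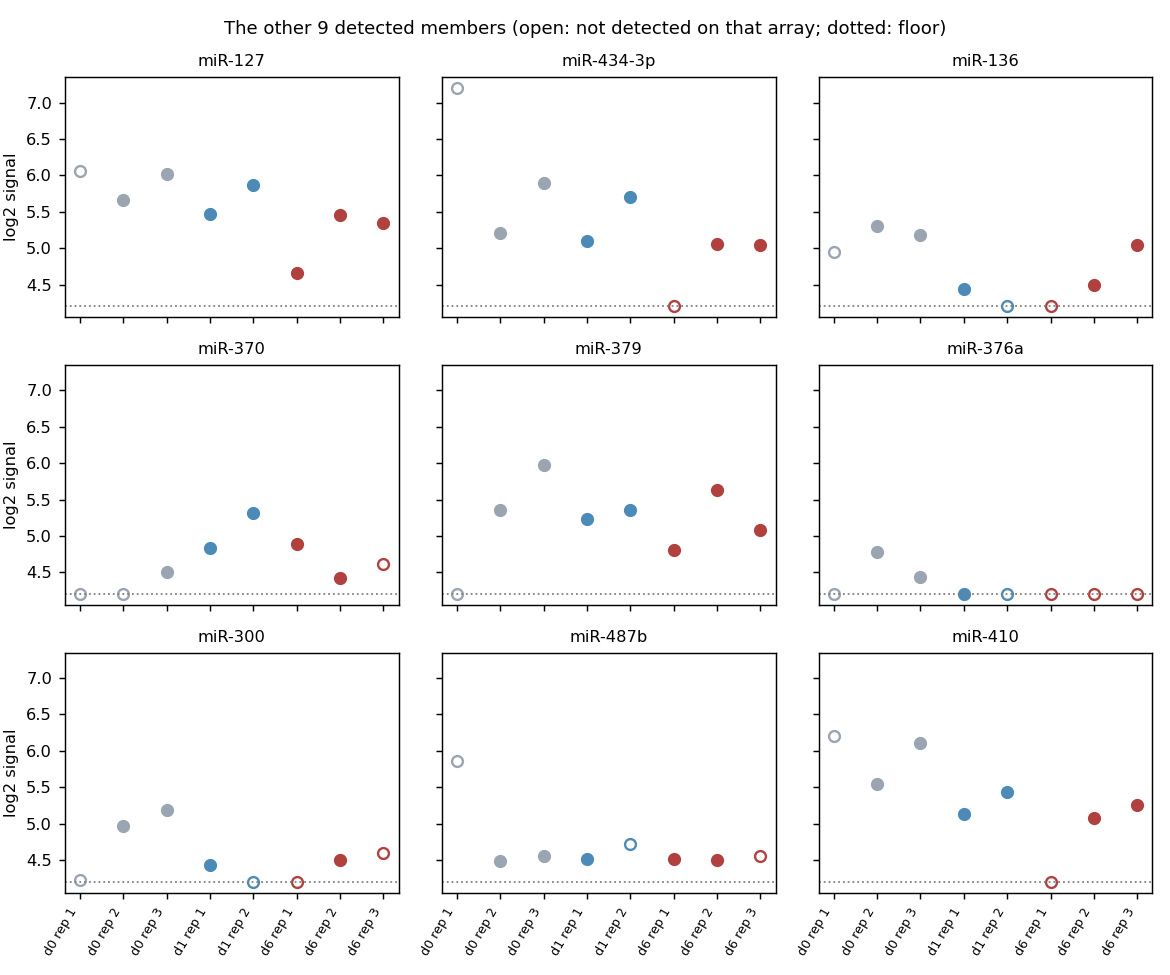
Scaled log2 signal (y axes, 1 scale) of the other 9 members detected on 3 or more arrays, on each array (x axes, day and replicate). Filled points were detected, open points were not, and the dotted line is the floor of 4.20; the 3 day 6 points of miR-127 and miR-434-3p lie under all 5 immature points.

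As a set, the 10 tested members had 1 call at day 6 over day 0 and 1 at day 1 over day 0, miR-494 both times, where 4.02% and 1.51% of the 199 tested mouse miRNAs were called. No member was called by limma at day 6 against both immature days, where 2.01% of all were called, or against day 1, where 0% were. At an unadjusted limma p under 0.05 stood 4 members at day 6 over day 0 (14.1% of all tested did), 2 over both immature days (12.1%) and 1 over day 1 (8.54%), and 3 at day 1 over day 0 (8.04%). At day 6, 7 of the 10 folds over day 0 were below 0, with a median of -0.40, against 48.2% below 0 and a median of 0.04 over all 199. Over both immature days 9 of 10 were below 0, with a median of -0.14, against 46.2% and 0.05 over all. Without day 0 replicate 3, which detected all 10, 7 of 10 were below 0. The direction of that second median turned with the scaling: it was 0.15 when arrays were scaled to control probes, where the median of all 199 was 0.52, and 0.04 with another background correction. Over day 0 the median was -0.17 with control probes, where that of all 199 was 0.46, and -0.77 without scaling, where that of all was -0.44.

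At day 1 over day 0, 7 of 10 were below 0 as well, with a median of -0.31, against 54.3% and -0.07 over all. The comparisons with day 0 share its arrays and are not independent. Days that did not overlap were counted too. At day 6, 3 of the 10 members lay wholly under day 0 (5.53% of all tested miRNAs did) and miR-494 wholly above it (10.6% did). At day 1, 2 of the 10 lay wholly under day 0 (3.52%) and 2 wholly above it (11.1%). At day 6, 3 members lay wholly under day 1 (17.1%) and 2 wholly under both immature days (4.02%). A member passed the filter through the arrays that detected it. Day 0 replicate 3 was among them for all 10, and miR-376a passed with no day 6 array. The filter can thus favour folds below 0 at day 6, and the counts cannot show a fall of the set. They describe the 10 measured sequences and say nothing of the 44 sequences not tested.

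**Figure D5:**
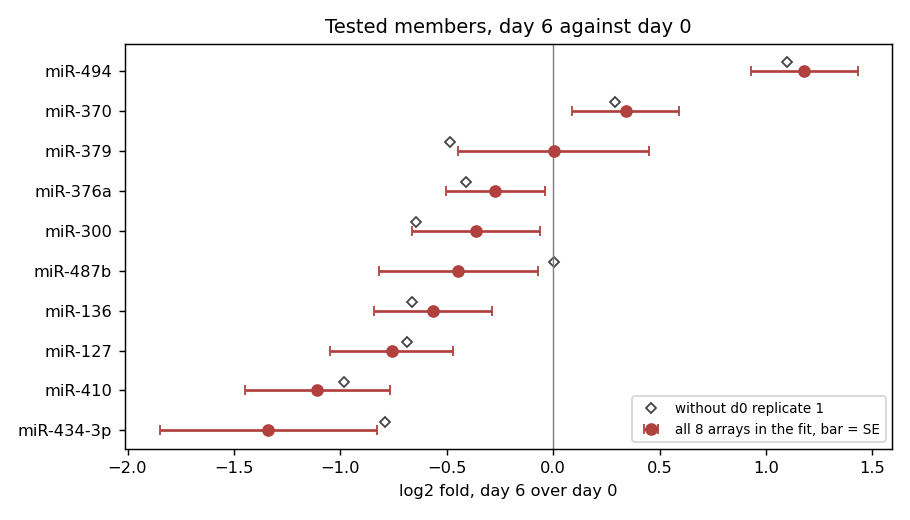
Log2 fold at day 6 over day 0 (x axis) of the 10 tested members (rows). Circles and bars are the limma estimates and SE from all 8 arrays, diamonds the estimates without day 0 replicate 1; miR-494 stands at 1.18, and miR-434-3p and miR-487b move most toward 0 without that array, to -0.79 and 0.00.

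Day 6 replicate 1 was the lowest array, or tied at the floor with another, for miR-127, miR-434-3p, miR-136, miR-300 and miR-410, and it is the middle or highest day 6 array for miR-487b, miR-370 and miR-494. Day 0 replicate 1 was the highest array for miR-127, miR-434-3p, miR-410 and miR-487b, and the lowest, or tied at the floor, for miR-379, miR-370, miR-376a and miR-494. Without day 6 replicate 1 the log2 fold at day 6 over day 0 of miR-410 was -0.79. Of 13 star strands of the members on the array, miR-299* was detected on 2 arrays, day 0 replicate 3 and day 6 replicate 2, miR-411* on day 0 replicate 3, and the other 11 on none.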

How the data were processed

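The deposited spot files came from Agilent Feature Extraction 9.5 per the file headers and hold background-subtracted intensities on a linear scale, not scaled between arrays; the submitters' value table holds the same deposited intensities (largest difference 0). Each array had 13715 spots, 13000 of them not controls, forming 1857 probes for 650 miRNAs, of which 611 are of mouse. Arrays of 1 slide and 1 scan were used as labelled: 3 of day 0, 2 of day 1 and 3 of day 6.

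Outlier spots were dropped and the spots of a probe averaged. Arrays were scaled to their 75th percentile among the 90 probes that every array detected, values under the 5th percentile of detected ones (18.4, or 4.20 in log2) were raised to that floor, and log2 was taken. Values at the floor have no order, and folds against them depend on it. A miRNA is its brightest probe. Tests covered the 199 mouse miRNAs that 3 or more arrays detected; 412 were not tested. In R 4.3 with limma 3.58 (and version 1.17 of data.table), all 8 arrays entered a fit with a mean for each day, two-sided, with Benjamini-Hochberg adjustment over the 199 and a call under 0.05; the script was tested on simulated data. The small number of arrays limits the precision. Deviations from the mean of a day had correlations of -0.708 to 0.318 between same-numbered samples of different days. Day 0 replicate 2 had 0.708 with day 1 replicate 1. With 2 arrays at day 1, their deviations mirror each other, so these correlations cannot decide whether samples were paired. The numbers were not taken as pairs. Figures used Python 3.11 and matplotlib 3.10.

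Every member detected on 3 or more arrays is named with its values, those on 1 or 2 arrays with the arrays, and the rest by name. Array names without an arm were given the RefSeq arm from knowledge of the naming history, not from the files. Members, lists and groups of the locus were chosen with earlier results of these data known. Alternatives covered scaling, background correction, probe summary, floor, filter, detection flag, outlier spots, moderation, blocks, array weights and leaving out arrays.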

Additional observations from a re-analysis of the deposited data

Results flagged for a closer look

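Among the 5 immature arrays, miR-487b had 1 sample far from the others. Day 0 replicate 1 read 5.86 in log2 signal, against 4.48 to 4.72 on the other 4, and its gap to the nearest of them was 0.826 of the whole range. The probe was not detected on that array, whose lowest detected signal was 199. Chance marks about 1 in 20 groups in this way, and 10 members were examined.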

How the results depend on the processing

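Over the 17 folds and 26 settings at most, 382 of 425 values kept their direction and their side of the threshold. With the doubled floor 3 became 0 (miR-370, miR-300 and miR-376a at day 6 over day 0). The count does not measure how firm the folds are, since some settings cannot move a fold. A day 1 array left out, for example, does not change a fold at day 6 over day 0. Only folds of miR-494 had a call to lose. MiR-494 at day 6 over day 0 gave 1 call. It became 0 with all-probe scaling, no scaling, normexp background, the mean or the sum of probes and a floor of 0.5 times. No filter, the other detection flag, a slide row block and only the days compared also took it to 0. So did each array left out of the fit in turn (0 to 0), but not day 0 replicate 1 left out throughout. Over all 26 settings its limma adjusted p ran from 0.00733 to 0.378. At day 1 over day 0 its call became 0 with all-probe scaling (2.74), with no scaling (1.83) and without day 1 replicate 2 (0 to 1 over the arrays left out). The causes were not tested. With the replicate number as a block both calls became 0, at log2 folds of 1.18 (limma adjusted p = 0.171) and 2.07 (limma adjusted p = 0.0586). By their labels the samples share only a number, and the block changed no other call of a member. No member was called at day 6 against day 1 or against both immature days in any setting.

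Folds at day 6 over day 0 changed sign for miR-379 (-0.20 all-probe, -0.58 no scaling, -0.0068 normexp, -0.052 mean of probes, -0.16 double floor, -0.018 outliers kept, -0.58 array weights, -0.056 slide row, -0.35 with day 0 replicate 1 left out throughout, -0.48 to 0.40 over the arrays left out). They did so too for miR-370 (-0.089, no scaling), miR-376a (0.036, normexp) and miR-487b (0.023 control scaling, 0.0025 normexp, 0.13 with day 0 replicate 1 left out throughout, -0.69 to 0.0018 over the arrays left out). The median over both immature days became 0.15 with control scaling and 0.043 with normexp.

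With the other detection flag 12, 34 and 37 of the 54 sequences were detected on the day 0 arrays, 32 and 27 at day 1, 25, 31 and 29 at day 6, and 33 on 3 or more arrays, as were 336 of all 611 mouse miRNAs. When all spots had to pass, day 0 replicate 1 had 0, day 6 replicate 1 had 2 and day 6 replicate 2 had 5. Leaving out day 0 replicate 1 throughout was chosen after seeing the data. Signal over background limits all members but miR-494, since most values lie near the floor.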
